A study of Mus musculus with 2 samples.

Results

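Müller glia are the radial support cells of the retina, and the cells described here are retinal cells that carried their transcripts but none of the proliferation genes Mki67 and Top2a. They were chosen by measured transcripts. A cell was taken when it held at least 1 UMI (unique molecular identifier, 1 counted RNA molecule) of at least 3 of the 6 genes Rlbp1, Slc1a3, Car14, Gpr37, Spon1 and Cp, no UMI of Mki67 or Top2a, and under 2000 CPM (counts scaled to 1000000 UMIs) of 8 summed endothelial genes. Barcodes had to hold at least 1000 UMIs, 500 genes and between 1% and 10% mitochondrial UMIs. The rule found 894 of 10347 cells. There were 709 among 7583 cells of the Control library (9.35%, 95% Clopper-Pearson interval 8.70 to 10.0). The Alk1 ECKO library held 185 among 2764 cells (6.69%, 5.79 to 7.69). Those totals include endothelial cells, which were 4.22% of cells in Control and 46.3% in Alk1 ECKO. The shares therefore depend on the makeup of each library. They do not show that Müller glia were fewer in Alk1 ECKO relative to the other retinal cells.

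Both libraries came from retinas of mice at postnatal day 6, from cells enriched with magnetic beads against the endothelial protein CD31. Mice of both groups carried the conditional allele Alk1f/f, and the Alk1 ECKO group carried Cdh5 CreERT2 as well, a tamoxifen-dependent Cre recombinase driven by an endothelial promoter. ALK1 is an endothelial receptor for bone morphogenetic proteins (BMPs). Müller glia were not the cells targeted, and those described are what remained after bead enrichment for another cell type. The sources used here give neither the tamoxifen schedule nor the number of animals pooled. There was 1 library per genotype, so no difference below has a replicate check and none was tested: each is a difference between these 2 libraries, and each interval covers counting error only.

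Müller glia arise last among the cell types of the retina, from the same progenitors that make rods and bipolar cells, and in the mouse they mature during the first weeks after birth. Mature Müller glia take up and recycle glutamate, buffer potassium and water, return retinoid to cones, and release vascular growth factors such as VEGF toward the growing retinal vessels. Young Müller glia and late progenitors share many transcripts, among them Notch targets and the genes of eye-field transcription factors.

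The 20 barcodes present in both libraries included none of these cells. The 2 libraries differed in makeup: endothelial cells were 320 and 1279 and rods 4090 and 503 in Control and Alk1 ECKO. Müller glia had a median of 7006 UMIs and 2884 genes in Control and 6044 UMIs and 2443 genes in Alk1 ECKO, and they gave 5939125 and 1233886 UMIs in all. Mitochondrial UMIs had medians of 4.41% and 3.54%. Below the limit of 1% mitochondrial UMIs lay 326 Control and 1473 Alk1 ECKO barcodes, of which 11 and 2 held the glial markers. Xist, expressed from the inactive X chromosome, was at 840 and 324 CPM and the Y-linked Ddx3y at 35.5 and 51.1 CPM, both with UMIs in either library. Gm42418, which overlaps ribosomal RNA sequence, was at 13801 and 2890 CPM.

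The label was checked against markers that the rule had not used. Crym, a thyroid hormone-binding crystallin of Müller glia, had 2656 CPM in Control (95% Poisson interval 2615 to 2698) and 3563 CPM (3458 to 3670) in the Alk1 ECKO library, and 93.2% and 90.3% of the cells held a UMI. Crym was at 23.9 and 29.0 CPM in rods and at 9.45 and 1.28 CPM in endothelial cells. Apoe, the lipid carrier made by glia, was at 2415 and 3544 CPM, and Dkk3, a secreted glycoprotein of Müller glia, at 475 and 498 CPM. Glul, the glutamine synthetase, was at 269 and 391 CPM. A UMI of Apoe was held by 97.3% and 96.8% of the cells, of Dkk3 by 88.2% and 88.6%, and of Glul by 79.8% and 78.4%.

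Genes of the mature water and potassium channels were low. Aqp4, the glial water channel, was at 2.19 and 3.24 CPM and was detected in 1.69% and 1.62% of the cells. Kcnj10, the Kir4.1 potassium channel, was at 30.1 and 8.10 CPM, and Clu, a secreted chaperone, at 21.4 and 26.7 CPM. Progenitor transcripts were present beside the glial ones. Hes5, a Notch target, was at 3867 and 3274 CPM, Ccnd1, the G1 cyclin D1, at 912 and 930 CPM, and Rax, an eye-field homeobox gene, at 394 and 332 CPM. The cells therefore carried Müller glia and late progenitor transcripts together, and these counts give no line between the 2 states. After each cell was thinned to 2000 UMIs, 87.0% and 85.0% held Crym, 84.4% and 78.3% Hes5, 72.2% and 65.0% Ccnd1, and 41.8% and 47.8% Glul.

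**Figure D1:**
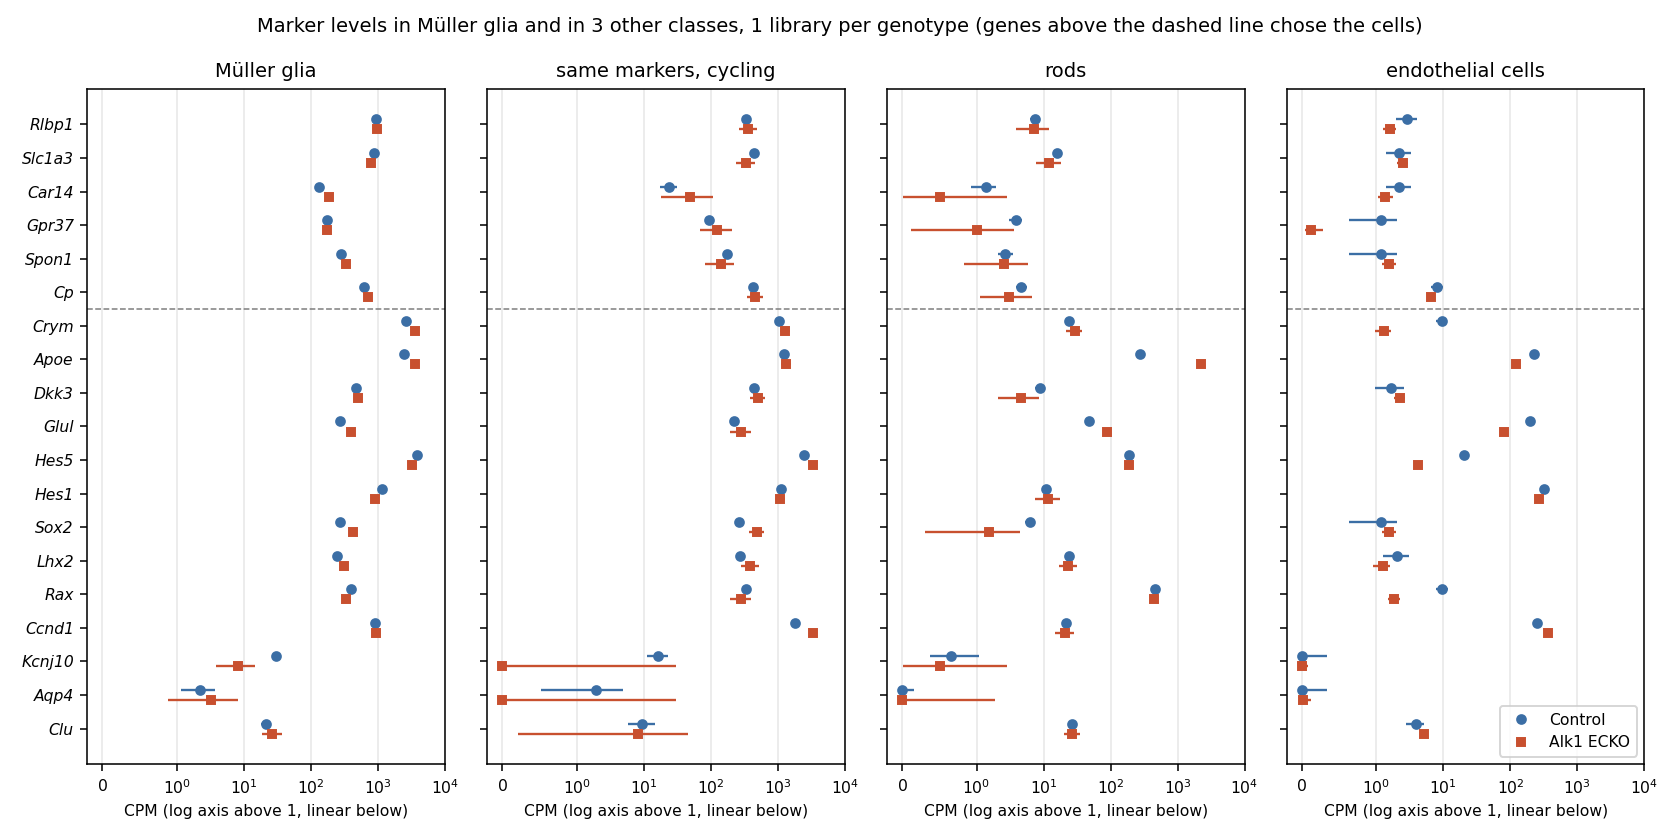
CPM of marker genes in Müller glia, in cells with the same markers and cycling transcripts, in rods and in endothelial cells (x axis, log above 1 and linear below), for Control (circles) and Alk1 ECKO (squares), with 95% Poisson intervals. The 6 genes above the dashed line chose the cells; below it, Crym, Apoe, Dkk3 and Hes5 lay between 475 and 3867 CPM in Müller glia of both libraries, while Aqp4 lay at 2.19 and 3.24 CPM.

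The values that chose the cells are a description. Rlbp1, the retinaldehyde-binding protein, was at 944 and 968 CPM, Slc1a3, the glutamate transporter GLAST, at 886 and 787, Cp, the copper oxidase ceruloplasmin, at 630 and 715, and Spon1, the matrix protein spondin, at 278 and 336. Gpr37, an orphan receptor of glia, was at 174 in both libraries, and Car14, a membrane carbonic anhydrase, at 134 and 186. All 6 were held by 244 Control and 64 Alk1 ECKO cells, and 115 and 26 cells lay just inside the rule with 3. Just outside it, with 2 of the 6, lay 175 and 31 cells.

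Cells near that limit differed from those with all 6 genes. Crym was higher with each further marker in Control, from 273 CPM in cells just outside to 968, 1548, 2750 and 3666 CPM in cells with 3, 4, 5 and 6. In Alk1 ECKO it was at 595, 2725, 1559, 3361 and 5205 CPM in the same order. Neurod4, a proneural factor of photoreceptor and bipolar precursors, went the other way, from 584 CPM with 3 markers to 141 CPM with 6 in Control and from 225 to 8.33 CPM in Alk1 ECKO. At least 3 rod markers were found in 46.9% of the Control cells just outside the rule and in 38.3%, 21.7%, 26.7% and 32.0% of those with 3, 4, 5 and 6 markers. The same shares in Alk1 ECKO were 6.45%, 15.4%, 12%, 13.3% and 15.6%, lowest just outside the rule. The median depth went from 5356 UMIs with 3 markers to 8129 with 6 in Control, and the part of depth in these values was not tested.

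One of the 8 endothelial genes of the rule was a transcript of these cells. Kdr, the VEGF receptor VEGFR2, which retinal progenitors also express, was at 570 and 399 CPM, and in cells with all 6 markers it was at 714 and 523 CPM. A set of 9 endothelial markers, which left out Kdr and also the rule genes Flt1 and Egfl7, summed to 14.99 and 68.9 CPM. Acvrl1, the gene of ALK1, was too low in Müller glia to be measured.

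Transcripts of other cell types were found in some Müller glia, and unequally in the libraries. At least 3 of 12 rod markers were held by 209 Control cells (29.5%, 26.1 to 33.0) and 26 Alk1 ECKO cells (14.1%, 9.39 to 19.9), and the 12 markers summed to 3527 and 1808 CPM. The 209 Control cells had a median of 10159 UMIs, and 99 of them were among the 111 Müller glia that a doublet score would have removed. At least 3 of 10 astrocyte markers were held by 15 Control cells (2.12%, 1.19 to 3.47) and 16 Alk1 ECKO cells (8.65%, 5.02 to 13.7), with sums of 127 and 484 CPM over all Müller glia. Those 15 and 16 cells met the rule but held little Crym (5.07 and 17.8 CPM) or Gpr37 (5.07 and 5.94), while Gfap was at 609 and 742 CPM and Pdgfra at 1314 and 1478 CPM, so their transcripts went against the label. At least 3 retinal pigment epithelium markers were held by 6 Control cells and 0 Alk1 ECKO cells. Mural and microglial markers reached 3 in 1 Alk1 ECKO cell each, and erythroid markers in none.

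**Figure D2:**
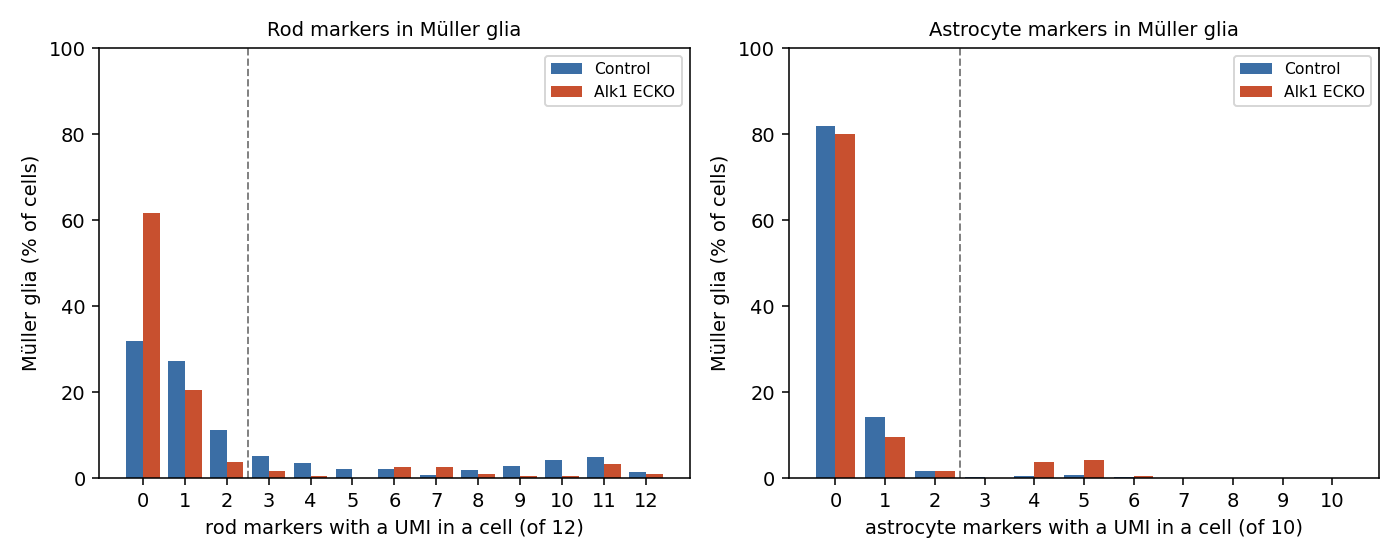
Share of Müller glia (y axis, percent of cells of each library) by the number of rod markers (left, of 12) and astrocyte markers (right, of 10) with a UMI, for Control and Alk1 ECKO. To the right of the dashed line lie the cells with 3 or more, 29.5% and 14.1% for rods and 2.12% and 8.65% for astrocytes.

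Because of this, each gene list compared between the libraries is also given for restricted Müller glia, which held fewer than 3 markers of each of 11 other classes. This restriction was chosen after seeing the data. It kept 477 Control and 141 Alk1 ECKO cells, with 3086467 and 804525 UMIs. In them the rod markers summed to 119 and 59.7 CPM and the astrocyte markers to 30.1 and 48.5 CPM. The 9 endothelial markers summed to 14.9 and 34.8 CPM. Gfap was at 0 UMIs in both libraries, and Crym was at 3213 and 4291 CPM. The restriction used these rod, astrocyte and endothelial markers, Gfap among them, so their low values are no check on it.

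Cells with the same glial markers and a UMI of Mki67 or Top2a numbered 221 in Control and 18 in Alk1 ECKO. The rule itself split these from the cells without cycling transcripts, so the comparison is a description of the split. Among 4353 genes compared, 5.54% were higher and 6.71% lower by over 1.5-fold in Control cells without cycling transcripts, with an interval that excluded no difference, and 6.62% were higher and 9.51% lower in Alk1 ECKO. All ratios were centred on the median of the genes compared.

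All 13 genes compared of the G2/M list were lower in both libraries, and of 9 G1/S genes 8 were lower in Control and 9 in Alk1 ECKO. Cenpf, a kinetochore protein, had 3.54 against 700 CPM in Control and 3.24 against 823 CPM in the Alk1 ECKO library. Ube2c, the ubiquitin-conjugating enzyme of mitotic exit, was at 0.674 against 376 and 3.24 against 640 CPM, and Birc5, the survivin gene, at 2.02 against 284 and 3.24 against 524 CPM. Nusap1, a spindle protein, Cdca8, the borealin gene, and the histone genes Hist1h1b, Hist1h2ap and Hist1h2ae, whose reads can be shared with other histone copies, completed the 8 lowest. Transcripts of G1/S were not absent in cells without Mki67 and Top2a: the list summed to 879 and 703 CPM, against 4167 and 4689 CPM in the cycling cells, and 92.5% and 81.1% of the cells held at least 2 such UMIs. Rods, a class that was not filtered on Mki67 and Top2a, held 774 and 739 CPM.

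Genes of Müller glia maturation were higher in the cells without cycling transcripts. Of 32 compared, 18 were higher in Control and 18 in Alk1 ECKO, 12 of them in both libraries, and 0 were lower. These counts include genes that chose the cells: Rlbp1, Slc1a3 and Car14 in both libraries, Gpr37 in Control, and Spon1 and Kdr in Alk1 ECKO. Aldoc, the glial aldolase, was at 116 against 30.7 CPM in Control (centred log2 ratio 1.85, 1.48 to 2.24) and at 311 against 41.6 CPM in Alk1 ECKO (2.83, 1.59 to 4.46). Of the Aldoc UMIs without cycling transcripts, 137 of 691 in Control and 197 of 384 in Alk1 ECKO lay in cells with astrocyte markers. Crym was at 2656 against 1036 and 3563 against 1280 CPM, and Apoe at 2415 against 1230 and 3544 against 1330 CPM. Leaving out the rule's genes, the others with the highest ratios, ranked by the smaller of the 2 libraries, were Necab3, a calcium-binding protein (1.498 and 2.24), Enpp2, the autotaxin gene (1.47 and 2.63), Npy, neuropeptide Y (1.45 and 1.77), Ndrg2, a glial differentiation gene (1.43 and 1.64), Sat1, the polyamine acetyltransferase (1.37 and 1.64), Ptgds, the prostaglandin D synthase (1.36 and 1.68), and Tubb2b, a tubulin (1.34 and 1.53). The Alk1 ECKO interval of Necab3 (-0.30 to 7.57) included no difference, and that of Enpp2 was 0.11 to 7.96. Both genes had 1 UMI in the Alk1 ECKO cycling cells. Of 8 genes of the CDK inhibitor list compared, 0 were higher in Control and 1, Btg2, in Alk1 ECKO. Hypoxia and glycolysis genes were higher in 4 of 29 cases in Control and 14 of 29 in Alk1 ECKO.

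**Figure D3:**
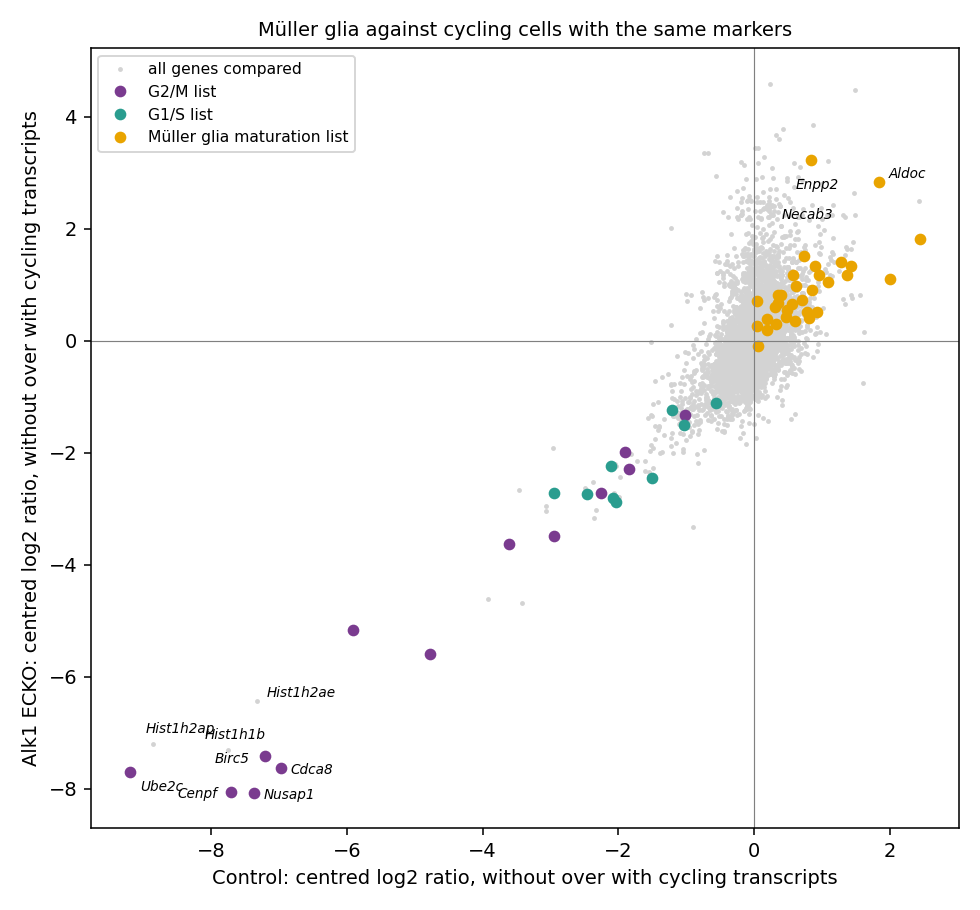
Centred log2 ratio of cells without over cells with cycling transcripts in Control (x axis) and Alk1 ECKO (y axis) for 4353 genes, with the G2/M, G1/S and maturation lists in colour. The G2/M and G1/S genes lie at the lower left in both libraries, and Aldoc of the maturation list lies at 1.85 in Control and 2.83 in Alk1 ECKO.

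The main comparison set Müller glia of the Alk1 ECKO library against those of Control. Of 10964 genes with at least 30 UMIs, 1103 (10.1%) were higher and 1006 (9.18%) lower in Alk1 ECKO, by over 1.5-fold and with an interval that excluded no difference. Ratios were centred on the median log2 ratio of all measured genes, -0.24. Without centring the split was 452 higher and 2078 lower. In restricted cells, with a median of -0.17, 481 of 9259 genes (5.19%) were higher and 464 (5.01%) lower. Of the 1103 and 1006 genes, 967 and 771 were measured in restricted cells, where 375 and 313 were past the same limits and 0 past them in the opposite direction. Restricted cells are part of the same Müller glia, so this overlap is no independent check. Leaving out only cells with 3 rod markers left 7.47% higher and 6.1% lower, and leaving out only those with 3 astrocyte markers 8.53% and 7.75%.

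**Figure D4:**
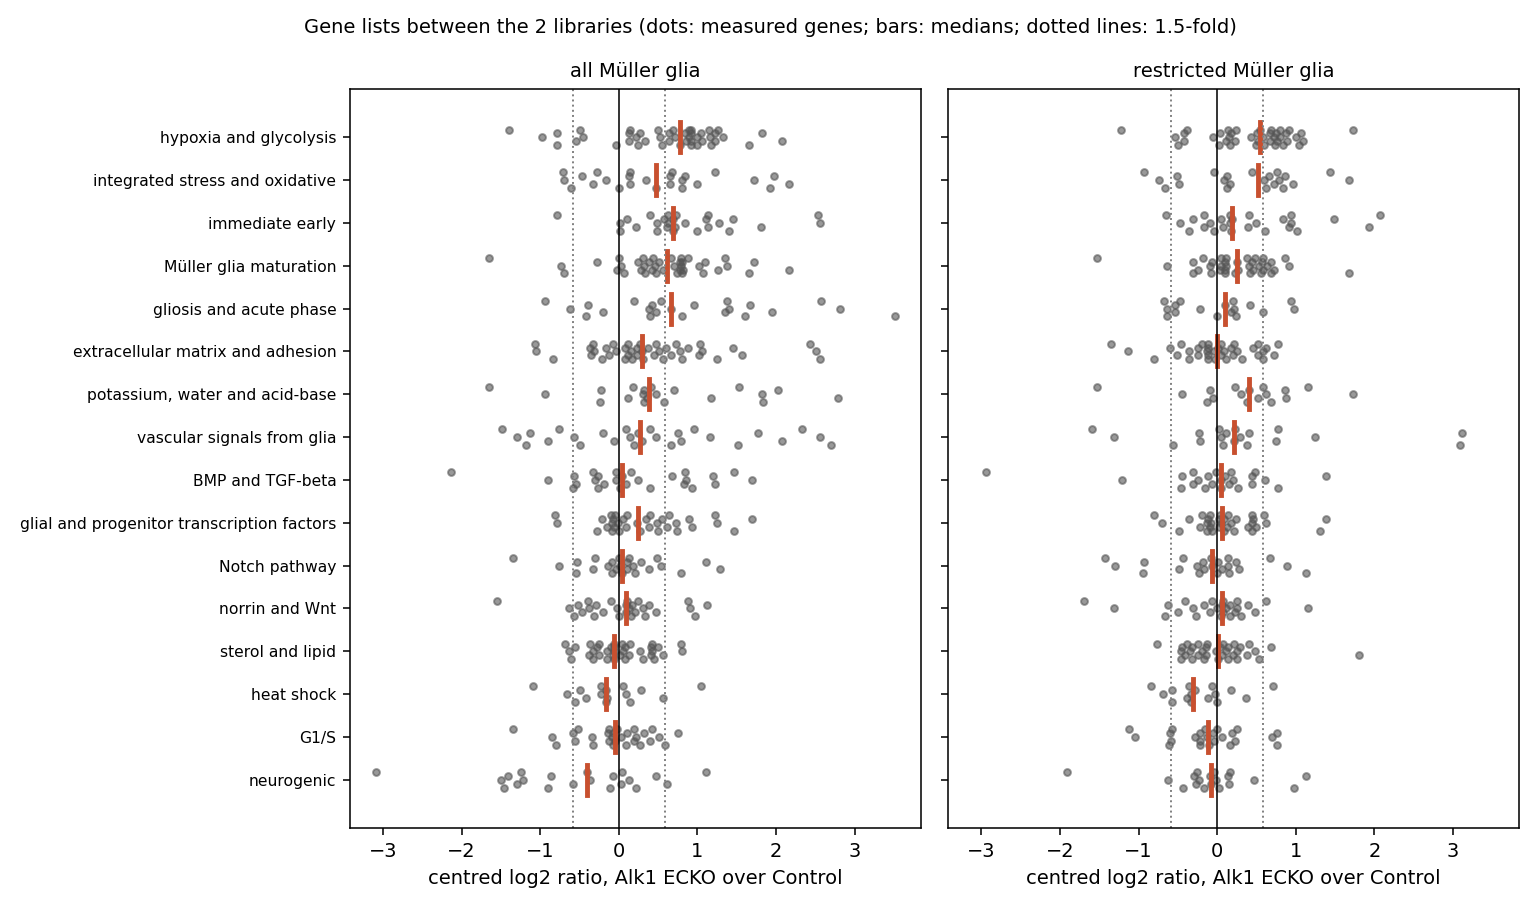
Centred log2 ratio of Alk1 ECKO over Control (x axis) for each measured gene of 16 lists, in all Müller glia (left) and restricted Müller glia (right); bars are list medians and dotted lines mark 1.5-fold. The hypoxia and glycolysis median was 0.78 and 0.54, the maturation median 0.62 and 0.26, and the gliosis median 0.66 and 0.09.

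Genes induced by low oxygen and genes of glycolysis were higher in Müller glia of the Alk1 ECKO library. Of 45 measured, 26 were higher and 4 lower (median centred log2 ratio 0.78), and of 41 measured in restricted cells, 18 were higher and 1 lower (median 0.54). Slc16a3, the lactate exporter MCT4, was at 26.9 and 79.5 CPM in restricted cells of Control and Alk1 ECKO (centred log2 ratio 1.73, 1.24 to 2.22), and 14.9% and 31.2% of the cells held a UMI. Slc2a1, the glucose transporter GLUT1, was at 207 and 380 CPM (1.04, 0.84 to 1.24). Bnip3, which directs mitochondria to autophagy, was at 126 and 240 CPM (1.09, 0.84 to 1.35), and its relative Bnip3l at 314 and 558 CPM (0.997). Ankrd37, an ankyrin repeat gene induced by HIF, was at 29.5 and 54.7 CPM (1.06, 0.51 to 1.59).

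Vegfa, the vascular growth factor, was at 144 and 215 CPM in restricted cells (0.75, 0.49 to 1.01) and at 151 and 287 CPM in all Müller glia (1.17, 0.98 to 1.35). The enzymes of the glycolytic chain lay close together: Gpi1 (0.80), Aldoa (0.88), Gapdh (0.73), Pgk1 (0.80), Pgam1 (0.83), Eno1 (0.73), Pkm (0.89) and Ldha (0.69) were each higher in restricted cells. Gapdh, Eno1 and Pgk1 have processed copies in the genome that can share reads. Hif1a, the oxygen-regulated transcription factor itself, was lower in all Müller glia, at 170 against 348 CPM (-0.79, -0.999 to -0.58), and just short of 1.5-fold lower in restricted cells (-0.54). Pfkfb3, which makes an activator of glycolysis, was the 1 gene lower in restricted cells, at 29.5 and 11.2 CPM (-1.23). Adm, the peptide adrenomedullin, was the highest of the list in all cells (2.08, 5.89 and 21.1 CPM) but too low to be measured in restricted ones. In GENCODE vM21 (GRCm38), the annotation places Slc16a3 at chromosome 11, 120948480 to 120960868 (plus strand), Slc2a1 at chromosome 4, 119108711 to 119137983 (plus strand) and Vegfa at chromosome 17, 46016993 to 46032369 (minus strand).

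The promoters of Ankrd37 and Bnip3 are printed because both genes were higher here and are known HIF targets, and the hypoxia response core ACGTG or GCGTG, on either strand, is in capitals. They are 300-base windows around the RefSeq start sites in GRCm38.p6, given 5′ to 3′ on the gene's strand, at chr8:45999801-46000100 (minus strand) for Ankrd37 and chr7:138909457-138909756 (minus strand) for Bnip3.
Ankrd37: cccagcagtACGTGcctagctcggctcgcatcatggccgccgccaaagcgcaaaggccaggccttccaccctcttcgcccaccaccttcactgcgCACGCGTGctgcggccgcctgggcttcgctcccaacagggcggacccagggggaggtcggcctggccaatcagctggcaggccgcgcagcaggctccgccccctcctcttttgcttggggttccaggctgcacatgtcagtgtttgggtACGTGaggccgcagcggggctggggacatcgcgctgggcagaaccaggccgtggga
Bnip3: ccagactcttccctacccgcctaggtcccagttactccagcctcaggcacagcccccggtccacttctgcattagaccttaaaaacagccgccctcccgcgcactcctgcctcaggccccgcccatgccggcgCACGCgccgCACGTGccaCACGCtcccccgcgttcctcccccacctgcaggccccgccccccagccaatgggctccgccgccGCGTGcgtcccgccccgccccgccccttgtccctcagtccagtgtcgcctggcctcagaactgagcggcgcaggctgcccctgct
The windows held 4 and 5 matches, overlapping ones included. Of 32851 promoter windows of the same length, 43.8% held at least 1 match and 8.93% at least 3. A match is a description of the letters and not a binding site.

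Other cell classes of the same libraries moved with this list. Of 43 measured in rods with fewer than 3 microglial markers, 19 were higher and 0 lower (median 0.47), where 6.81% of all measured genes were higher and 5.68% lower. In endothelial cells 13 of 45 were higher and 2 lower (median 0.47), against 10.6% and 10.2% of all measured genes. Slc16a3 was at 1.85 in rods and 1.41 in endothelial cells, and Ankrd37 at 1.60 and 1.57. Bnip3 and Slc2a1 were at 1.41 and 1.11 in rods but at -0.01 and -0.02 in endothelial cells, and Vegfa was at 0.30 in rods and 0.96 in endothelial cells, where it was at 1.74 and 2.90 CPM. Differences between the classes were not tested.

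**Figure D5:**
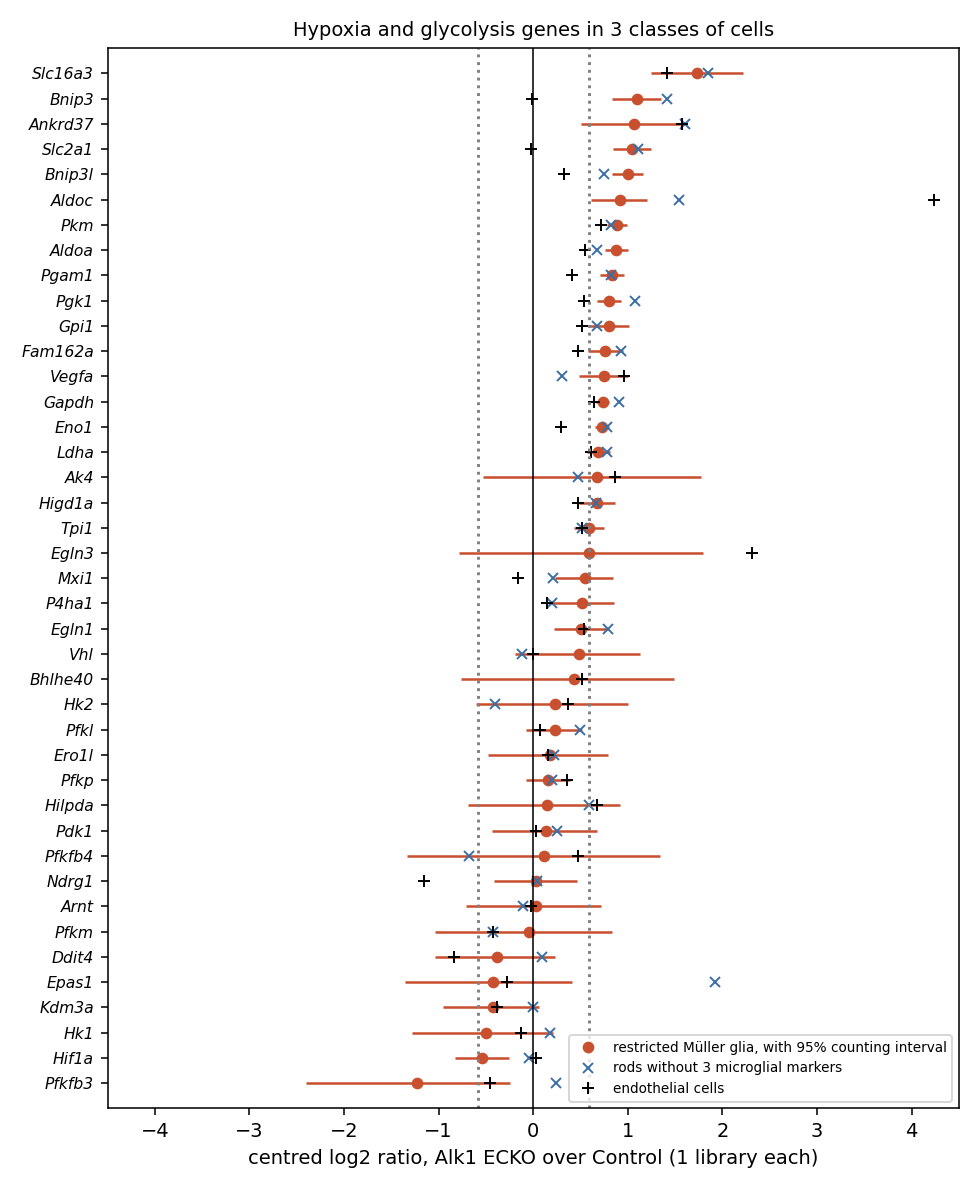
Centred log2 ratio of Alk1 ECKO over Control (x axis) for the hypoxia and glycolysis genes measured in restricted Müller glia (dots, with 95% counting intervals), beside the ratios in rods (crosses) and endothelial cells (plus signs). Slc16a3 is highest at 1.73 and Pfkfb3 lowest at -1.23; Bnip3 and Slc2a1 are near 1 in Müller glia and near 0 in endothelial cells.

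Of 25 measured genes of the integrated stress and oxidative list, 12 were higher and 3 lower (median 0.47). Over all measured genes 10.1% were higher and 9.18% lower. Of 22 list genes in restricted cells, 10 were higher and 3 lower (median 0.52), against 5.19% and 5.01%. Of 28 measured in rods with fewer than 3 microglial markers, 9 were higher and 0 lower (median 0.20), against 6.81% and 5.68%. Endothelial cells had 11 of 32 higher and 2 lower (median 0.27), against 10.6% and 10.2%. Mt1, a metallothionein that binds zinc and copper, was at 224 and 634 CPM in restricted cells (1.67, 1.502 to 1.84), with a UMI in 56.2% and 76.6% of them. Its neighbour Mt2 was at 46.0 and 111 CPM (1.43, 1.04 to 1.83), and Mt3, the brain metallothionein, at 20.7 and 33.6 CPM (0.86, 0.16 to 1.53). Ftl1 and Fth1, the 2 ferritin chains, were at 0.77 and 0.73, the glutathione enzymes Gpx4 and Gclm at 0.66 and 0.84, and Prdx1, a peroxiredoxin, at 0.60. Both ferritin genes have processed copies that can share reads.

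The 3 genes lower were also measured in restricted cells. Atf4, the central factor of the integrated stress response, was at 203 and 108 CPM (-0.74, -1.08 to -0.41), Xbp1, the factor of the unfolded protein response, at -0.94, and Slc39a10, a zinc importer, at -0.67. Mt1 was also higher in rods (1.68, at 5.06 and 14.5 CPM) and endothelial cells (1.96, at 4.95 and 16.6 CPM), both at far lower levels, and in the cycling cells with glial markers (1.84, at 167 and 540 CPM).

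The promoters of Mt1 and Mt2 are printed because the 2 genes had the highest ratios of the stress list in restricted cells, and the metal response core TGCNCNC, on either strand, is in capitals. Both windows lie on the plus strand of GRCm38.p6, at chr8:94178839-94179138 for Mt1 and chr8:94172368-94172667 for Mt2, from RefSeq.
Mt1: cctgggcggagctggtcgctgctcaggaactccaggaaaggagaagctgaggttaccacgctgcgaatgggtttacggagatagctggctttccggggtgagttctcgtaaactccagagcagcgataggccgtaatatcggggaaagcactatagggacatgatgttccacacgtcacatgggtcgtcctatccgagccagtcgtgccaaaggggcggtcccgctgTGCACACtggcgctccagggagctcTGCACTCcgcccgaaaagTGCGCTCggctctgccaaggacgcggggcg
Mt2: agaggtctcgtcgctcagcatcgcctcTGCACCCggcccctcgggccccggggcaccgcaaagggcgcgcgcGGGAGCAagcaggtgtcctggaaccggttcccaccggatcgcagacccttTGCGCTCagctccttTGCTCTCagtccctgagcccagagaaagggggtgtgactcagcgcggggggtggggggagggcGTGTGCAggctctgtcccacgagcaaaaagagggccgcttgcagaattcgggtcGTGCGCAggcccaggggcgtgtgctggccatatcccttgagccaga
They held 3 and 6 matches. At least 1 match was found in 51.0% of the 32851 windows and at least 3 in 7.10%.

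Immediate early genes, which respond within minutes to stimulation and also to tissue dissociation, were higher in 16 and lower in 1 of 27 measured (median 0.69). In restricted cells 8 of 26 were higher and 0 lower (median 0.18), where 5.19% of all measured genes were higher and 5.01% lower. Fos, a subunit of the AP-1 factor, was at 1828 and 3119 CPM in restricted cells (0.94, 0.87 to 1.01), and Fosb at 218 and 346 CPM (0.83). Klf4, a zinc-finger factor, was at 12.3 and 46.0 CPM (2.07, 1.38 to 2.76), with a UMI in 5.45% and 19.9% of the cells, and Klf2, its relative, at 5.51 and 18.6 CPM (1.93, 0.82 to 3.02) from 17 and 15 UMIs. In endothelial cells Klf4 was at 91.2 and 128 CPM, and any part of endothelial RNA in these values was not tested. Socs3, the feedback inhibitor of cytokine signals, was at 52.5 and 89.5 CPM (0.94), and Zfp36, an RNA-decay factor, at 51.2 and 92.0 CPM (1.01). Dusp1, Junb, Ier2 and Nr4a1 were higher in all Müller glia but lay between -0.04 and 0.19 in restricted cells. Ier5 was the 1 gene lower in all Müller glia (-0.79). In endothelial cells 17 of 29 were higher and 0 lower (median 0.78), against 10.6% and 10.2% of all measured genes. Rods with fewer than 3 microglial markers had 8 of 24 higher and 1 lower (median 0.20), against 6.81% and 5.68%. Differences between the classes were not tested.

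Of 40 measured genes of Müller glia maturation, 20 were higher and 3 lower in Alk1 ECKO (median 0.62). Over all measured genes 10.1% were higher and 9.18% lower. In restricted cells 9 of 38 maturation genes were higher and 1 lower (median 0.26), against 5.19% and 5.01%. The rule's own genes are part of this list, and so are Mt1 and Mt3, given above. Of 33 measured in rods with fewer than 3 microglial markers, 7 were higher and 0 lower (median 0.25), against 6.81% and 5.68%. In endothelial cells 11 of 35 were higher and 4 lower (median 0.46), against 10.6% and 10.2%. The list was thus not higher in Müller glia alone. Differences between the classes were not tested. Crym was at 3213 and 4291 CPM in restricted cells (0.59, 0.53 to 0.64), Apoe at 3057 and 4377 CPM (0.69, 0.63 to 0.74), Aldoc at 102 and 172 CPM (0.91, 0.61 to 1.21), Itm2b, a membrane protein (0.64), Slc6a11, the GABA transporter GAT3, at 38.2 and 55.9 CPM (0.72), and Col9a1, a collagen chain, at 275 and 368 CPM (0.59). Glul was higher in all Müller glia (269 and 391 CPM, 0.78) but at 323 and 312 CPM in restricted cells (0.12), and it was at 914 CPM in the 16 Alk1 ECKO cells with astrocyte markers. Vim, Sparc, Ptn, Sox9, Cd9, Dbi and Prdx6 were likewise higher in all Müller glia and lay between 0.26 and 0.55 in restricted cells.

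Kcnj10 went against the list. It was at 36.3 and 11.2 CPM in restricted cells (-1.53, -2.69 to -0.55) and at 30.1 and 8.10 CPM in all Müller glia (-1.65, -2.74 to -0.74), and 19.7% and 5.67% of restricted cells held a UMI. These values came from 112 and 9 UMIs. Kcnj10 also belongs to the list of potassium, water and acid-base genes: of 17 measured in restricted cells 4 were higher and 1 lower (median 0.41), and of 20 in all Müller glia 7 were higher and 2 lower (median 0.38). Besides Slc16a3, those higher were Bsg, the basigin partner of lactate transporters, at 465 and 752 CPM (0.86), Fxyd6, a regulator of the sodium pump, at 26.9 and 53.4 CPM (1.16), and Car14, which the rule used, at 161 and 230 CPM (0.68). Atp1b1, a sodium pump subunit, was at 2.79 in all Müller glia. In Alk1 ECKO, 96.9% of the Atp1b1 UMIs lay in the 16 cells with astrocyte markers.

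Genes of glutamate, GABA and amino acid handling were higher in 4 and lower in 3 of 21 (median -0.003), and in 1 and 1 of 19 in restricted cells (median -0.025), where the higher gene was Slc6a11. Slc1a2, the glutamate transporter GLT-1, was at 170 and 50.2 CPM in all Müller glia (-1.52) but at 42.1 and 33.6 CPM in restricted cells (-0.16). Of the visual cycle and retinoid list 2 were higher and 3 lower of 13 (median 0.04), and in restricted cells 0 and 2 of 10 (median 0.18). Those 2 were Rdh11, a retinol dehydrogenase (26.2 and 8.70 CPM, -1.42), and Rarb, a retinoic acid receptor (24.9 and 9.94 CPM, -1.16).

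Of 34 measured transcription factors of glia and progenitors, 9 were higher and 2 lower (median 0.25), and in restricted cells 4 were higher and 2 lower (median 0.06). Id1, an inhibitor of basic helix-loop-helix factors that BMP signals induce, was at 91.7 and 213 CPM in restricted cells (1.38, 1.10 to 1.66), with a UMI in 33.3% and 51.1% of them. Its relatives lay lower in restricted cells: Id3 was at 583 and 585 CPM (0.18), Id2 at 112 and 135 CPM (0.44) and Id4 at 36.9 and 44.7 CPM (0.45), while in all Müller glia they were at 0.93, 1.22 and 1.47. Id1 was at 0.89 in rods and 0.10 in endothelial cells, where it was at 263 and 242 CPM. Sox2, a factor that maintains progenitors and glia, was at 334 and 450 CPM in restricted cells (0.60), Six6, an eye-field factor, at 0.62, and Klf15 at 1.301 from 9.07 and 19.9 CPM. Meis1, a homeobox factor of eye progenitors, was at 90.1 and 46.0 CPM (-0.80), and Sox6 at -0.70.

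The list of BMP and TGF-beta signalling genes includes Id1, Id2, Id3 and Id4, so its counts are not separate from those above. Of 27 measured, 8 were higher and 2 lower (median 0.05), and in restricted cells 3 were higher and 1 lower of 24 (median 0.05). The 3 were Id1, Bmpr1b, a type I BMP receptor (0.61), and Acvr2b, a type II receptor (0.77). The 1 lower was Ltbp1, a TGF-beta binding protein (-2.94, at 10.7 and 1.24 CPM).

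Genes of neurogenesis were lower in all Müller glia, 9 of 21 against 2 higher (median -0.41). In restricted cells 2 were lower and 2 higher of 19 (median -0.08). Neurod1, a proneural factor, was at 454 and 206 CPM in all Müller glia (-0.90) and at 74.8 and 64.6 CPM in restricted cells (-0.04), and Crx, the photoreceptor homeobox factor, at -1.22 and -0.23. Neurod4 was at -1.29 and -0.27, and Insm1 at -0.87 and -0.01. The rod markers were lower in Alk1 ECKO Müller glia too, as given above.

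Gadd45g, a growth-arrest gene that cells show as they leave the cycle, was at 257 and 60.9 CPM in restricted cells (-1.91, -2.36 to -1.49), with a UMI in 28.5% and 16.3% of them. It was at -0.75 in rods and 0.43 in endothelial cells. Otx2, a factor of photoreceptor and bipolar precursors, was at 197 and 113 CPM (-0.63, -0.96 to -0.31). The 2 higher genes were Dll3, a Notch ligand relative (23.7 and 46.0 CPM, 1.13), and Bhlhe22, a factor of amacrine and bipolar precursors (29.2 and 51.0 CPM, 0.97).

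In the Notch pathway 2 were higher and 2 lower of 25 (median 0.04), and 1 higher and 3 lower of 23 in restricted cells (median -0.07). The higher gene was Dll3, given above, and those lower were Numb, a Notch inhibitor (-1.42), Maml1, a coactivator (-1.31), and Heyl, a target (-0.95). Hes5 was at 4917 and 4164 CPM in restricted cells. In the norrin and Wnt list 4 were higher and 0 lower of 29 (median 0.09), and 1 each of 27 in restricted cells (median 0.06). Porcn, which acylates Wnt proteins, was the gene higher (11.3 and 22.4 CPM, 1.15). Ndp, the gene of norrin, which Müller glia release to retinal vessels, was at 24.3 and 8.70 CPM in restricted cells (-1.31) and at 17.0 and 9.73 CPM in all Müller glia, where its interval (-1.56 to 0.30) included no difference.

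Among 28 measured genes for vascular signals, 11 were higher and 2 lower (median 0.27), and in restricted cells 5 were higher and 2 lower of 19 (median 0.22). Besides Vegfa, Vegfb was higher in restricted cells (42.4 and 64.6 CPM, 0.78), and Igfbp2, an insulin-like growth factor binding protein, was at 77.8 and 164 CPM (1.25). Sema3e, a repulsive guidance cue for vessels, was at 25.3 and 7.46 CPM (-1.59), and Ndp was lower as given above. Igf2 and Igfbp5 had the highest restricted ratios, 3.09 and 3.11, but a single Alk1 ECKO cell held 84.1% and 83.3% of their UMIs. Cxcl12, a chemokine, and Apln, the apelin gene, were at 2.56 and 2.70 in all Müller glia. Of the Cxcl12 UMIs, 98.4% in Control and 95.3% in Alk1 ECKO lay in the 15 and 16 cells with astrocyte markers.

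Genes of gliosis and the acute phase were higher in 11 and lower in 2 of 23 in all Müller glia (median 0.66). In restricted cells 2 were higher and 1 lower of 17 (median 0.09). Gfap, the filament protein of astrocytes and reactive Müller glia, was at 20.2 and 101 CPM in all Müller glia and at 0 UMIs in the restricted cells of both libraries. Gfap was among the astrocyte markers that the restriction used, so the 0 is no result about reactive Müller glia. Ccl2, a chemokine, was at 2.86 and 27.6 CPM with 97.1% of its Alk1 ECKO UMIs in cells with astrocyte markers. Vim, the intermediate filament of Müller glia, was at 1762 and 2086 CPM in restricted cells (0.41), and B2m, a light chain of antigen presentation, at 25.6 and 26.1 CPM (0.20). Those past the limits in restricted cells were Socs3 (0.94), S100a6, a calcium-binding protein (0.98), and, lower, Stat3, the transcription factor of cytokine signals (69.3 and 38.5 CPM, -0.68).

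The extracellular matrix and adhesion list was similar: 13 higher and 2 lower of 43 in all Müller glia (median 0.30), and 1 higher, Col9a1, and 0 lower of 36 in restricted cells (median -0.01). Vcan, Bcan and Sparcl1, matrix genes of astrocytes, were at 2.56, 2.51 and 2.44 in all Müller glia, and each was too low to be measured in restricted ones. Complement and phagocytosis genes were higher in 1 and lower in 1 of 17 (median 0.32), and in 0 and 0 of 15 in restricted cells (median 0.08).

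G1/S genes were higher in 1 and lower in 2 of 29 (median -0.05), G2/M genes in 0 and 2 of 13 (median -0.21), sterol and lipid genes in 2 and 2 of 37 (median -0.06), and heat shock genes in 1 and 2 of 16 (median -0.16). In restricted cells the same lists held 2 higher and 2 lower of 24 (median -0.11), 0 and 1 of 9 (0.05), 2 and 1 of 35 (0.004) and 1 and 1 of 16 (-0.31). Of the CDK inhibitor list 2 were higher and 1 lower of 16 (median 0.06), and in restricted cells 1 was higher and 2 were lower of 13 (median -0.007). Those lower were Rbl2 (28.8 and 12.4 CPM, -1.05) and Rb1 (64.8 and 28.6 CPM, -1.01), the genes of retinoblastoma-family proteins that restrain the cycle. Cdkn1c, the p57 inhibitor that Müller glia and precursors use to leave the cycle, was at 219 and 369 CPM in restricted cells (0.92, 0.72 to 1.12). It was at 0.68 in rods and 0.18 in endothelial cells.

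The single genes with the highest ratios in all Müller glia were Ccl2 (3.51), Lcat, a cholesterol acyltransferase (3.19), Atp1b1 (2.79), Cst3, the cystatin C inhibitor (2.77), Cgnl1, a junction protein (2.73), Lrrtm3, a synaptic adhesion protein (2.73), Ccnd2, cyclin D2 (2.62), Cmtm5, a glial membrane protein (2.57), Vcan, Cxcl12, Klf4 and Bcan. In the 16 Alk1 ECKO cells with astrocyte markers lay between 67.9% (Cgnl1) and 100% (Lcat) of the Alk1 ECKO UMIs of 11 of these 12 genes, and 20% for Klf4. Cst3, at 987 and 5674 CPM, was still higher in restricted cells at 393 and 1038 CPM (1.57), although 1 cell held 34.1% of its Alk1 ECKO UMIs there.

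Those with the lowest ratios were Nyap2, a neuronal signalling adaptor (-3.83), Gucy2e, a photoreceptor guanylate cyclase (-2.88), Fhod3 (-2.85), Egflam, the synaptic matrix protein pikachurin (-2.68), Plch2, a phospholipase (-2.64), Crmp1, a growth cone protein (-2.62), Ssh1, a cofilin phosphatase (-2.51), Pcp4, a calmodulin-binding peptide (-2.50), Rp1l1, a photoreceptor axoneme protein (-2.48), Map6, a microtubule protein (-2.48), Srrm3, a splicing factor of neurons (-2.36), and Fabp12 (-2.29). Control cells with rod markers held between 57.4% (Nyap2) and 98.6% (Fabp12) of the Control UMIs of 11 of them, and 37.9% for Pcp4. Both ends of this ranking thus lay largely in cells with transcripts of another class.

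In restricted cells the same rule gave other genes. After Igf2, the highest were Hddc3, a nucleotide hydrolase (17.5 and 73.3 CPM, 2.24), Klf4, Pink1, the kinase of mitochondrial quality control (37.9 and 122 CPM, 1.85), Slc16a3, Mt1, Pdlim3, an actin-associated protein (1.45), Mt2, Tmem121 (1.40), Id1, Ypel3, a growth-suppressor gene (109 and 247 CPM, 1.35), and Rhno1, a DNA damage checkpoint gene (1.34). Hddc3 was at 2.06 in rods and 2.80 in endothelial cells. Pink1 was at 0.81 and 0.34 and Ypel3 at 0.85 and 0.12 in the same classes, so these were higher in rods as well.

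The lowest in restricted cells were Pcp4, Mtmr4, an endosomal phosphatase (20.7 and 2.49 CPM, -2.89), the ribosomal RNA-overlapping AY036118 (788 and 123 CPM, -2.51), Sema4c, a semaphorin (23.3 and 3.73 CPM, -2.48), Crhbp, a binding protein of corticotropin-releasing hormone, Snhg5, a small nucleolar RNA host gene (85.5 and 18.6 CPM, -2.03), Ddhd1, a phospholipase (-1.93), Gadd45g, Uimc1, a DNA repair factor (-1.83), Cstf2, a polyadenylation factor (-1.77), Glce, a heparan sulfate epimerase (-1.71), and Usp24, a deubiquitinase (-1.71). Pcp4 had 97 UMIs in 10 Control cells and 0 in Alk1 ECKO, and Crhbp 68 UMIs in 3 Control cells and 0 in Alk1 ECKO, so both rested on few cells. AY036118 was at -2.51 in rods and -2.26 in endothelial cells. Snhg5, held by 38.6% of restricted Control cells and 9.22% of Alk1 ECKO cells, was at -0.33 in rods and -0.23 in endothelial cells, differences from Müller glia that were not tested.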

How the data were processed

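The authors deposited raw UMI counts per gene and barcode, 1 matrix per library, from 10x Genomics 3′ libraries per the labels' protocols. Cell Ranger is given as 5.0.1 per the file headers. Version 6.1.1, FastQC 0.11.9 and the build mm10 stand in the submitters' processing notes. The sources used here give no other step. Members and gene lists (21 lists, 733 of 735 entries in the files) were chosen with earlier results of these data known.

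UMIs were summed per class and library and given as CPM. Intervals at 95% are exact Poisson for sums, exact conditional binomial for ratios and Clopper-Pearson for shares, and ratios against 0 used a floor of 3 counts. Genes with at least 30 UMIs over both libraries were measured. A gene was called past 1.5-fold from the median of measured genes, with an interval that excludes no difference. The calculation was tested on simulated data. No test was run, with 1 library per genotype.

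Rods held at least 3 of 7 rod genes, fewer than 3 glial markers and under 2000 CPM of endothelial genes, and endothelial cells at least 4 of 8 endothelial genes and 2000 CPM. In Alk1 ECKO, 16 of 503 rods held 3 microglial markers, and ratios in rods leave such cells out. Marker counts for restricted cells left out 14 broadly detected genes.

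Named were the 12 highest and 12 lowest called genes whose interval lay beyond 1.5-fold (minimum 20 CPM in 1 library, 50 UMIs over both), leaving out predicted, sex-linked, haemoglobin, ribosomal and mitochondrial genes, rule genes, markers of other classes and genes at over 5 times the level in another class; the 3 highest and 3 lowest of each list and those against its direction; and the 8 highest and lowest against cycling cells, without rule genes. Other named list genes, Gm42418, Xist and Ddx3y were chosen after their values were seen. Ranks in restricted cells used the same rule.

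Scrublet (scanpy 1.11.5) called 1 Control and 14 Alk1 ECKO cells by its automatic threshold, so doublets were left in, and removing 460 and 61 cells at 0.8% per 1000 cells was an alternative. Alternatives were no centring, trimmed-mean centring, mean CPM per cell, thinning to 2000 UMIs, other marker, cycle, neurogenic, mitochondrial and UMI limits, and the restrictions. Gene positions were matched by ID for 544 of 544 genes (GENCODE vM21). Python 3.11.15, NumPy 2.4.6, pandas 2.3.3 and SciPy 1.17.1 were used. A few genes of the lists are not reported here.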

Additional observations from a re-analysis of the deposited data

Results flagged for a closer look

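Cxcl12, a chemokine, was higher in Müller glia and lower in endothelial cells of the Alk1 ECKO library. Its centred log2 ratio was 2.56 (2.03 to 3.08) in Müller glia, at 10.4 and 51.9 CPM, and -0.92 in endothelial cells. The difference between the classes was not tested. Of the Cxcl12 UMIs of Müller glia, 98.4% in Control and 95.3% in Alk1 ECKO lay in the 15 and 16 cells with at least 3 astrocyte markers. Those cells were 2.12% and 8.65% of Müller glia, and their transcripts went against the label. In restricted cells 0 Control cells and 1 Alk1 ECKO cell held a UMI.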

How the results depend on the processing

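No paired analysis was possible because each genotype had 1 library, and for the same reason no replicate could be left out. The 8 lists below are maturation, potassium and water, neurogenic (lower calls), gliosis, hypoxia, immediate early, stress and matrix. In all Müller glia they held 20, 7, 9, 11, 26, 16, 12 and 13 calls among 1103 higher and 1006 lower genes. Without centring there were 452 higher and 2078 lower genes, with 10 calls for maturation and 7 for stress. Thinning to 2000 UMIs gave 528 and 387 genes, and 5 neurogenic, 5 gliosis, 10 immediate early and 4 matrix calls. Restricted cells, 6.29% of Control and 5.10% of Alk1 ECKO cells, gave 481 and 464 genes, with 9 maturation, 4 potassium and water, 2 neurogenic, 2 gliosis, 8 immediate early and 1 matrix calls. Leaving out cells with 3 rod markers gave 718 and 586 genes, with 8 maturation, 4 neurogenic and 8 matrix calls, and leaving out those with 3 astrocyte markers gave 5 gliosis and 8 matrix calls. These last 3 settings were chosen after seeing the data.

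Cells with fewer than 2 G1/S UMIs (0.699% and 1.27% of cells) gave 104 and 124 genes and, in the order of the lists, 3, 0, 3, 1, 15, 2, 1 and 1 calls. There Cst3 was lower, at -0.68, against 2.77 in all Müller glia and 1.57 in restricted cells. Cells with fewer than 2 neurogenic genes (0.699% and 1.41%) gave 143 and 151 genes and 6, 2, 0, 3, 5, 8, 2 and 0 calls. Both settings hold far fewer cells. Requiring 4 markers gave shares of 7.83% and 5.75%, removing doublets 8.40% in Control, and no lower mitochondrial limit 4.41% in Alk1 ECKO. Such shares are of all cells, endothelial cells included, and depend on the makeup of each library. Trimmed-mean centring left the 45 named genes, 21 lists and both counts within 1.5 times or on the same side of the limit. Genes under 30 UMIs, and the spread between animals, were beyond the reach of these libraries.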
